A study of Mus musculus with 2 samples.

Results

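The transcription factor genes described here are 83 of the 8735 gene spots of a 2-color mouse cDNA microarray. They were taken by the start of the gene name in the files, such as homeo box, forkhead, GATA, E74-like or transcription factor, with no use of their measured values. The 83 spots carried 82 gene names, since the ETS gene EHF had a pair of clones. Whole morulae of strain B6CBF1, labeled as 4 d old, had received LIF-siRNA or scrambled siRNA into the cytoplasm at the pronuclear stage. The labels give 1.0 fmol of siRNA for both groups, and the study's methods and legends give other doses. RNA of LIF-siRNA-treated embryos was labeled with Cy5 and RNA of scrambled-siRNA-treated embryos with Cy3 on each of 2 arrays. The dyes were not swapped, so dye and treatment cannot be told apart in any ratio below. A description among the labels speaks of untreated embryonic stem cells, while titles, RNA sources and tissue name treated whole embryos. Nothing says that the arrays held separate pools of embryos, so the spread between them may be technical. The siRNA acts only in part and for a limited time, and LIF itself has no spot by which the knockdown could be checked.

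Transcription factors bind DNA and set which genes a cell transcribes, and families such as the homeobox and forkhead factors share a DNA-binding fold. HOX genes lie in 4 clusters, where their order matches the order in which they are used along the body axis after gastrulation. In the preimplantation embryo a small set of factors separates the lineages. POU5F1 (also called OCT4) and SOX2 mark pluripotent cells, CDX2, EOMES, GATA3 and TFAP2C are used in the trophectoderm, and GATA6 in the primitive endoderm. LIF is a cytokine of the IL-6 family whose receptor acts through JAK kinases and STAT3, and it holds mouse embryonic stem cells in the pluripotent state. No spot of this array was named as CDX2, and no gene name began with paired box or Meis.

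A spot was tested when it was well above background, as marked by the scanner software, in at least 1 channel on both arrays. This held for 76 of the 83 spots. TCF7, TCF21, TCF20, HOXA2, HOXB6, FOXK1 and DLX1 did not pass and are in no count over tested spots. They are among the 83 spots to which the signal criteria were applied. The spots were often dim. The study asked for an intensity above 1000 of either dye. Taken here as the mean processed signal of a channel over both arrays, this was reached by 20 of the 83 spots (24.1%) and by 40.5% of all gene spots. Between 71 and 77 of the 83 spots were well above background in each channel of each array, and 66 of the 83 in all 4 of these (all gene spots 86.9%). None was saturated or marked as an outlier. The median processed signal of all gene spots was between 470.2 and 489.5 over the channels and arrays, and that of blank spots between 8.05 and 17.4. The embryonic markers POU5F1 and REX1 (zinc finger protein 42) were well above background in both channels, with POU5F1 signals between 7313 and 8862.

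No factor passed the test across all probes. When limma was used to test each log2 ratio against 0, 0 of the 76 spots had an adjusted p under 0.05, where 0.0% of all 8079 tested probes did, and the smallest adjusted p was 0.058 in both sets. Unadjusted p was under 0.05 with a higher ratio for 18 of the 76 spots (all probes 15.9%) and with a lower ratio for 15 (all probes 14.8%). The methods' t-test also gave 0 after adjustment. Other settings gave calls: 3 spots with normexp background correction and loess (all probes 1.83%) and 4 among spots well above background in both channels (all probes 3.09%), and more when only bright spots, an intensity trend or median centring was used. An exact sign test on 2 arrays cannot give a p below 0.5 for 1 gene. "Higher" and "lower" therefore describe the measured ratio of LIF-siRNA over scrambled siRNA, and not a call. Where a pair of values is given for a gene, the value of array 1 comes first, and SDs are over n = 2 arrays. In whole embryos, fewer cells of a type and less RNA per cell cannot be told apart.

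The study's thresholds of the ratio are 2 and 0.5, beside that of intensity. Applied here to the geometric mean ratio and the mean processed signal of both arrays, they left a set that need not be the study's own. In this version 2 of the 83 spots were up (all gene spots 2.16%) and 3 were down (all gene spots 2.19%). The factors past the upper threshold were GATA1 and CEBPA, and those past the lower included ELF3 and ID2. The study's own up-expression list, chosen on these arrays, holds FOXD1, HOXA10 and LHX2 and neither GATA1 nor CEBPA. FOXD1, HOXA10 and LHX2 had mean ratios above 2 with mean signals below 1000. On array 1 alone the ratio was below 2 for GATA1 (1.53) and CEBPA (1.86) and above 2 for FOXD1, HOXA10 and LHX2. Without the signal threshold a mean ratio above 2 was found for 9 of the 76 tested spots (all probes 6.96%) and below 0.5 for 7 (all probes 5.27%). These 16 were not only dim spots. Of the 20 spots past the signal threshold, 2 had a mean ratio above 2 (all such probes 5.33%) and 3 below 0.5 (5.42%), and of the 56 tested spots under it, 7 did (8.22%) and 4 did (5.16%). The ratio was past its threshold on each array separately for 6 spots upward (all probes 2.78%) and 3 downward (all probes 3.03%). The closest spots to the thresholds included GATA1 (mean ratio 2.07) on the inside and IRX3 (1.99) and FOXN1 (1.92, control not well above background on array 2) on the outside above. On the lower side SIX4 (0.513) and TFAP2A (0.520) lay just outside.

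The median SD of the log2 ratio was 0.33 for the 76 spots and 0.25 for all tested probes. The sign was the same on both arrays for 58 of the 76 spots (all probes 73.5%), with 33 higher and 25 lower on both. Of all 8079 tested probes, 2966 were higher and 2970 lower on both. Pearson r between the arrays over the 76 spots was 0.765 (all tested probes 0.639), and Spearman rho was 0.689. The points are genes that share the same arrays and dyes, so this describes the arrays and has no test. The median log2 ratio was 0.15, with 0.17 on array 1 and 0.01 on array 2, and 0.08 after normexp and loess. For all tested probes the median was -0.004, with 0.004 on array 1 and -0.003 on array 2. These values of all probes are the reference for the medians and counts of families and lists below.

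**Figure D1:**
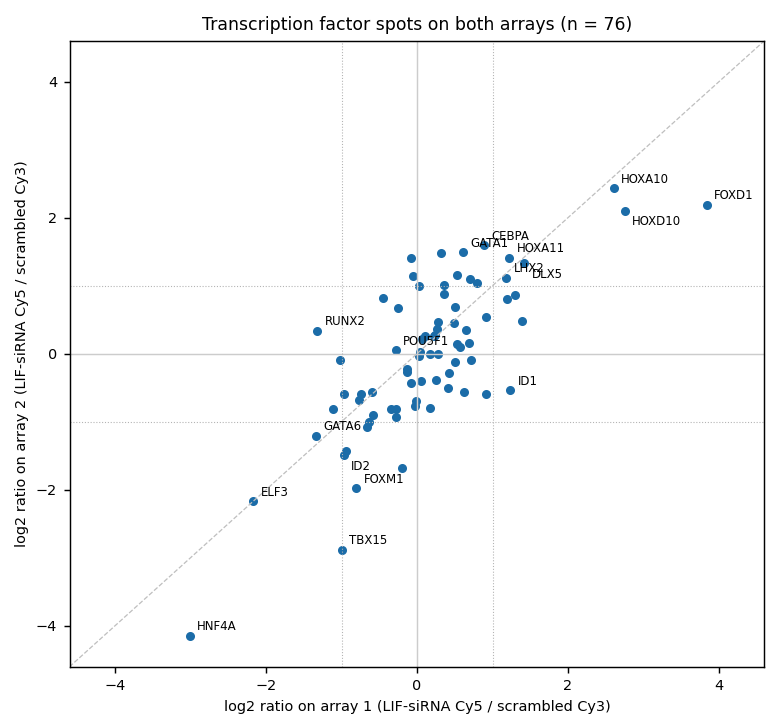
Log2 ratio of LIF-siRNA (Cy5) over scrambled siRNA (Cy3) on array 1 (x axis) and array 2 (y axis), 1 point for each of the 76 tested transcription factor spots. Dotted lines mark a log2 ratio of 1 and -1 and the dashed line equal values. HNF4A and ELF3 lie far down and FOXD1, HOXA10 and HOXD10 far up on both arrays, while ID1 and RUNX2 (a dim spot) have opposite signs.

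HNF4A was low on both arrays. It is a nuclear receptor of hepatocytes and of the visceral endoderm that forms from the primitive endoderm. Its signal after scrambled siRNA was 111.2 on array 1 and 244.6 on array 2, and after LIF-siRNA 13.8 on both. The Cy5 signal was not well above background on either array, so the measured log2 ratios of -3.01 and -4.15 are not exact. Against the lowest signal that the software marked as well above background on each array, or the spot's own where higher, HNF4A was 8.09-fold lower after LIF-siRNA. This floor is no strict limit, since unmarked spots could be brighter than marked ones. In Cy5 on array 1, TCF20 (33.5) was not marked and TLX3 (29.7) was. The limma adjusted p of 0.058 is that of the measured ratio and not of the fold with this floor. The HNF4A spot passed the filter on dim spots through its Cy3 channel alone. Its mean log2 ratio of -3.58 became -1.25, a smaller change than that fold, after normexp background correction and loess. That setting adds an offset of 50 to every signal.

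ELF3 had the most even ratio of the low factors. This epithelial ETS factor had signals of 4844 and 6570 after scrambled siRNA and 1077 and 1465 after LIF-siRNA. The log2 ratio was -2.17 on both arrays, a 4.49-fold lower mean (95% interval of the log2 ratio -2.70 to -1.63, adjusted p = 0.058). It was the only one of the 83 spots that met the criteria above on each array separately. The adjusted p of ELF3 ranged from 0.000325 to 0.157 over the limma settings tried. Values of the other ETS genes lay on both sides of 0. ELF5, a trophoblast factor, had log2 ratios of 0.32 and 1.47, and ELF1 of 0.53 and 1.16. ELF4 had 0.04 and 0.02, and ETS2, which is used in trophoblast, had -0.03 and -0.77. The repressor ETV6 had 0.17 and 0.00. The pair of EHF clones differed in sign, with -0.14 and -0.22 for 1 clone and 0.92 and 0.55 for the other, so no direction can be given for EHF. Over the 8 ETS spots the median log2 ratio was 0.06, with 5 higher and 3 lower on both arrays.

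**Figure D2:**
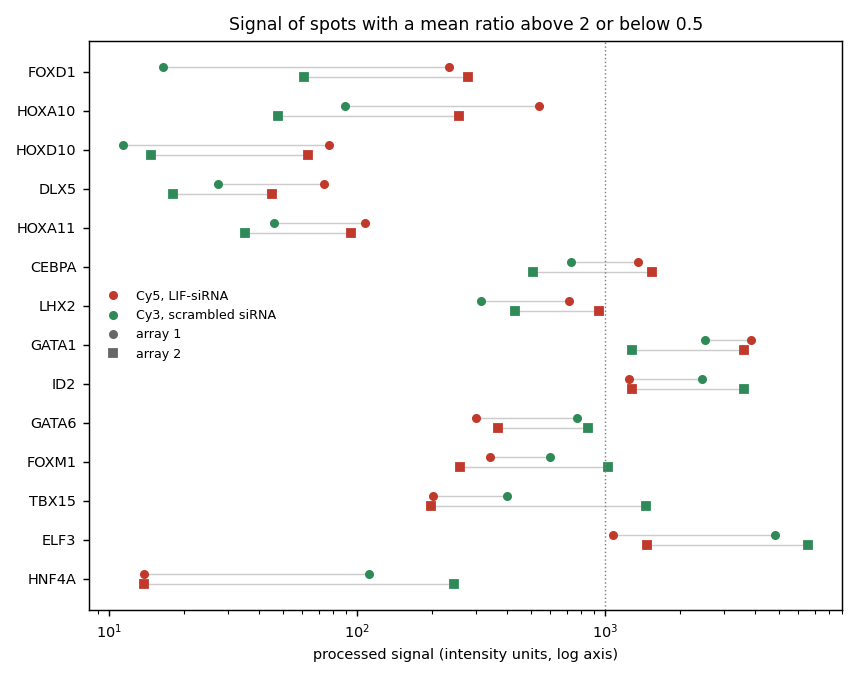
Processed signal (x axis, intensity units, log scale) of 14 tested spots with a mean ratio above 2 or below 0.5, in order of the mean ratio. Red marks LIF-siRNA (Cy5), green scrambled siRNA (Cy3), circles array 1 and squares array 2, and the dotted line marks the signal threshold of 1000. ELF3, ID2, GATA1 and CEBPA reach the threshold by the mean of both arrays, and TBX15 and FOXM1 only in Cy3 on array 2. HNF4A, FOXD1, HOXD10, DLX5 and HOXA11 lie far below it.

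GATA factors bind the sequence they are named for, and their 4 spots gave 2 higher and 2 lower on both arrays (median log2 ratio -0.02). GATA6, the primitive endoderm factor, had signals of 765.1 and 850.6 after scrambled siRNA and of 302.1 and 367.9 after LIF-siRNA. The log2 ratios were -1.34 and -1.21 (2.42-fold lower, SD 0.09, adjusted p = 0.0612). With 2 signals per group, both control signals were above both signals after LIF-siRNA. How often this held over all probes was not counted. GATA1, the erythroid factor, had signals of 2526 and 1283 after scrambled siRNA and of 3856 and 3612 after LIF-siRNA. The log2 ratio of GATA1 was 0.61 and 1.49, and the control signals differed more between the arrays than the treated signals. GATA3 had -0.27 and -0.81, and GATA2, used with GATA3 in trophoblast, had 0.64 and 0.35.

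Among the bHLH genes and their inhibitors the Id genes did not share a direction. Id proteins pair with bHLH factors such as TCF3 and TCF12 and keep them off DNA. ID2 had signals of 2449 and 3621 after scrambled siRNA and of 1248 and 1285 after LIF-siRNA. The log2 ratios of ID2 were -0.97 and -1.50 (2.35-fold lower, adjusted p = 0.0711). ID3 had 0.36 and 1.01, and ID1 had 1.24 on array 1 and -0.53 on array 2. HAND1, a trophoblast giant cell factor, had -1.02 and -0.09, and TWIST1 had 0.61 and -0.56. TCF12 was lower on both arrays, at -0.97 and -0.59, as was MLX, a bHLH-zipper protein that pairs with other factors (-0.74 and -0.60). TCF3, the most general partner, had opposite signs, with 0.41 and -0.50. Of the 9 tested spots, 1 was higher on both arrays, 4 were lower on both and 4 had opposite signs. The median SD of 0.65 was above that of the ETS spots (0.19).

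Other factors of the trophectoderm and of pluripotent cells among the 83 spots had these values. POU5F1 had log2 ratios of -0.28 and 0.05 (95% interval -0.68 to 0.46, adjusted p = 0.754). EOMES, a T-box factor of trophoblast, had 0.28 and 0.00 (95% interval -0.43 to 0.70). TFAP2C, an AP-2 factor of trophoblast and germ cells, had 0.50 and 0.68, with signals of 14410 and 14076 after LIF-siRNA and of 10182 and 8782 after scrambled siRNA (adjusted p = 0.143). Its relative TFAP2A had -0.20 and -1.69. TEAD2, which binds DNA for the coactivator YAP1, had -0.01 and -0.69, and CDX1, the caudal homeobox gene on the array, had -0.35 and -0.82. Intervals of this width do not show that POU5F1 or EOMES stayed the same, and the low means of TFAP2A, ETS2 and TEAD2 rested on array 2. POU2F1, a widely used POU factor, had -0.66 and -1.09, with a mean of 0.546 of control.

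The genes that work with these factors were taken from a list of 21 names of the pluripotency and lineage network outside the spots above, of which 11 had a spot and 10 were tested. Their median log2 ratio was -0.53, with 2 higher and 6 lower on both arrays, 3 below 0.5 (all probes 5.27%) and 0 with an adjusted p under 0.05. The median was -0.30 after normexp and loess. SOX2, a partner of POU5F1, had -3.00 and -1.69, and the study had picked SOX2 and PDGFRA on these same arrays. Without these the median of the other 8 tested spots was -0.11, with 1 below 0.5. KLF5, a factor of naive pluripotent cells and trophectoderm, had a mean of -1.45 (SD 0.63, lower on both arrays, adjusted p = 0.073). REX1, a marker of naive pluripotency, had 0.54 and 0.16. The primitive endoderm list of 6 names, which includes GATA6 and HNF4A, had 4 spots, all lower on both arrays, with a median of -1.24. Of all 8079 tested probes, 2970 were lower on both. HNF4A had passed the filter through Cy3 alone, where it is high, and PDGFRA was picked by the study on these arrays. Only GATA6 and laminin alpha 1 were free of such selection. PDGFRA was one of the 4 (-1.15 and -1.27), and laminin alpha 1 another (-0.13 and -0.70). The summed Cy3 signal of the 4 spots was 2832 and 3861, and the summed Cy5 signal 1289 and 1582. The trophectoderm list had 6 spots of 10 names with a median of -0.18, with 1 higher and 3 lower on both arrays. Keratin 8, an epithelial filament of trophectoderm, was its lowest member (-1.73 and -2.16, adjusted p = 0.058), while keratin 19 had 0.22 and -0.14. The list of inner cell mass or pluripotent genes had 5 spots of 6 names with 2 higher and 2 lower on both arrays.

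**Figure D3:**
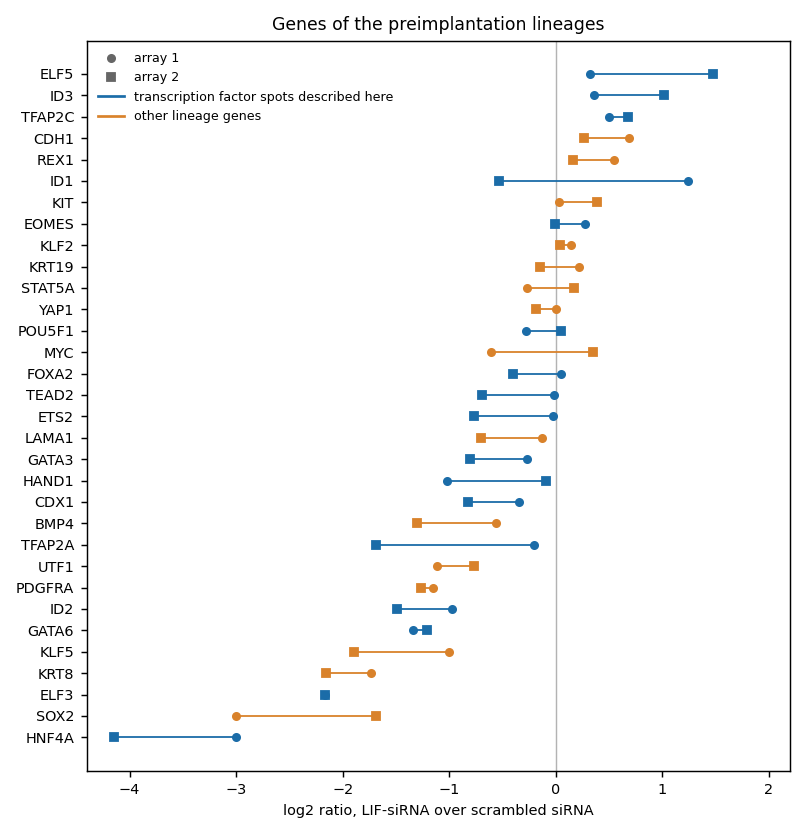
Log2 ratio of LIF-siRNA over scrambled siRNA (x axis) of genes of the preimplantation lineages, with circles for array 1 and squares for array 2, in order of the mean. Blue marks the transcription factor spots and orange the other genes of the network and lineage lists. HNF4A, SOX2, ELF3, keratin 8, KLF5, GATA6, ID2 and PDGFRA lie lowest, while POU5F1, EOMES and YAP1 lie around 0.

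Among the HOX genes, which pattern the body axis after implantation, 14 spots were found and 12 tested. The median log2 ratio was 0.24, with 6 higher and 3 lower on both arrays, and the only HOX gene past the signal threshold, HOXC6, was lower (mean -0.58). HOXA10, used in the posterior axis and the uterus, had signals of 88.7 and 47.7 after scrambled siRNA and of 541.3 and 256.9 after LIF-siRNA. The log2 ratios were 2.61 and 2.43 (5.73-fold higher, SD 0.13, adjusted p = 0.058). After normexp and loess the mean was 1.49. HOXD10, a gene of the same paralog group in another cluster, had 76.7 and 63.0 after LIF-siRNA and was not well above background after scrambled siRNA on either array. With the same floor and the deposited normalization, HOXD10 was 2.78-fold higher after LIF-siRNA. It passed the filter on dim spots through its Cy5 channel alone, and the adjusted p of 0.058 is that of the measured ratio and not of this fold. Its mean log2 ratio was 0.58 after normexp and loess, which is a smaller change than this fold. HOXA11, the neighbor of HOXA10, had log2 ratios of 1.22 and 1.41, with control signals of 46.0 and 35.3 (adjusted p = 0.0607). The mean of HOXA11 was 0.51 after normexp and loess. HOXD9 had 0.91 and -0.59, HOXD12 -0.14 and -0.27, and HOXB13 0.69 and 0.16. HOXC5 and HOXC6, which are next to each other, were lower on both arrays, at -0.77 and -0.69 for HOXC5 and -0.59 and -0.56 for HOXC6. By the number in the gene name, 3 of the 6 tested genes of paralog groups 9 to 13 had a mean ratio above 2 (all probes 6.96%), and 0 of the 6 of groups 1 to 8 did. HOXD10, among the 3, was tested only through Cy5, where it is high, so its place in this count was partly fixed by the filter. After normexp and loess HOXA10 was the 1 of the 6 above 2. The medians of these sets were 0.87 and 0.06. The sets were compared after the values were known, and no test was made.

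**Figure D4:**
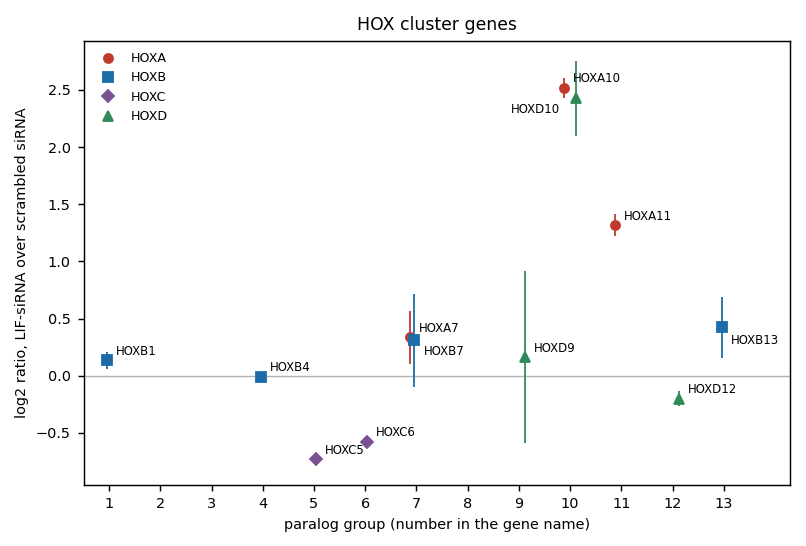
Log2 ratio of LIF-siRNA over scrambled siRNA (y axis) of the 12 tested HOX genes by paralog group (x axis), with 1 color and symbol for each cluster. Points are means of both arrays and lines run between the arrays. HOXA10, HOXD10 and HOXA11 stand above a log2 ratio of 1, and HOXC5 and HOXC6 are the lowest.

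Forkhead genes encode winged-helix factors. FOXD1, a factor of kidney stroma and retina, had signals of 16.4 and 61.1 after scrambled siRNA and of 234.3 and 278.6 after LIF-siRNA. This corresponds to measured log2 ratios of 3.84 and 2.19 (adjusted p = 0.0592). The control was well above background on array 2 only, so the ratio of array 1 is not exact, and with the same floor for dim controls the fold was 7.08. After normexp and loess its mean log2 ratio was 1.34. FOXM1, which drives genes of mitosis, was lower, with 597.0 and 1021 after scrambled siRNA and 341.7 and 258.6 after LIF-siRNA (log2 ratio -0.80 and -1.98, adjusted p = 0.0904). The endoderm factors FOXA2 (0.05 and -0.41) and FOXA3 (0.11 and 0.26) lay near 0. Over the 8 tested forkhead spots the median was 0.35, with 5 higher and 1 lower on both arrays, and it was 0.21 after normexp and loess. FOXA3 (mean 0.18) was the only forkhead spot past the signal threshold.

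Other homeobox genes also split. DLX5, of limb and bone, was not well above background after scrambled siRNA on either array. With the same floor and the deposited normalization it was 2.04-fold higher. It too passed that filter through Cy5 alone, and the adjusted p of 0.0607 is that of the measured ratio. LHX2, a LIM homeobox gene of forebrain and hair follicle, had signals of 315.7 and 433.3 after scrambled siRNA and of 716.2 and 941.1 after LIF-siRNA. The log2 ratios of LHX2 were 1.18 and 1.12 (2.22-fold higher, SD 0.04, adjusted p = 0.0655). After normexp and loess the mean was 1.02 for LHX2, 0.51 for HOXA11 and 0.44 for DLX5, a smaller change than the fold given for DLX5. The eye and forebrain gene SIX3 had 0.70 and 1.10, IRX3 had 1.19 and 0.80, and MSX1 had 0.27 and 0.36. SIX4 had -1.11 and -0.82, and TLX3, a neural gene, had -0.58 and -0.90. Of the 9 tested spots of this family, without the LIM homeobox genes such as LHX2, 4 were higher and 4 lower on both arrays (median 0.31), and the median was -0.14 among those well above background in both channels.

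CEBPA, the C/EBP factor of liver, fat and myeloid cells, had signals of 728.5 and 509.5 after scrambled siRNA and of 1352 and 1537 after LIF-siRNA. The log2 ratios of CEBPA were 0.89 and 1.59 (2.37-fold higher, adjusted p = 0.077). CEBPG, a partner of other bZIP factors, had 0.28 and 0.47. TBX15, a T-box gene of skin and skeleton, had -0.99 and -2.88, and its control signal was 402.3 on array 1 and 1461 on array 2 against 201.8 and 197.9 after LIF-siRNA. RUNX1, of blood, had 0.49 and 0.46, while RUNX2 had -1.32 and 0.34 and RUNX3 0.17 and -0.80. Each of the runt spots had a channel that was not well above background on at least 1 array, so these ratios and signs are not exact. Factors of general and organelle transcription were also present. TFAM, of mitochondrial DNA, had 0.23 and 0.27, TFDP1, the partner of E2F, 0.22 and 0.25, and UBTF, of ribosomal RNA genes, -0.07 and -0.44. Of the factors that bind beta-catenin, TCF7L1 (0.25 and -0.39) and TCF7L2 (0.43 and -0.28) had opposite signs. A clone named transcription factor 4 shares its UniGene cluster with TCF7L2 and had 0.80 and 1.04, so which gene that clone measures is uncertain.

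**Figure D5:**
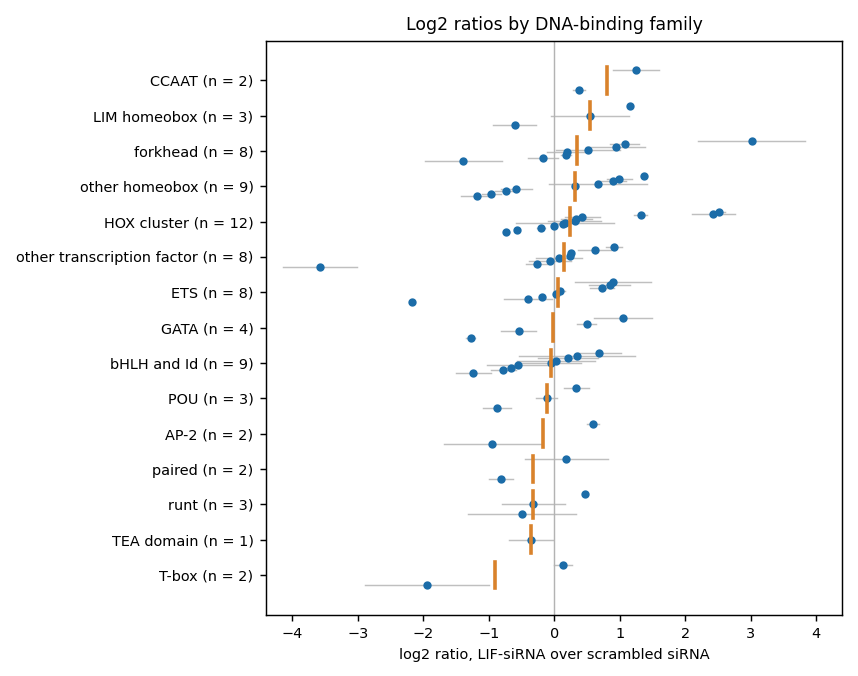
Log2 ratio of LIF-siRNA over scrambled siRNA (x axis) of the 76 tested spots by family (y axis). Each point is the mean of both arrays, the gray line runs between the arrays, and the orange bar is the family median. Family medians lie between 0.81 for the 2 CCAAT spots and -0.90 for the 2 T-box spots, and each of the larger families holds spots on both sides of 0.

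Promoter windows from 250 bases before to 50 after a transcription start were found in RefSeq (GRCm38.p6) for 58 of the genes. The pattern TTCNNNGAA, bound by STAT factors, was looked for because LIF acts through STAT3. It occurred on either strand in 9.55% of all 27025 genes and in 3 of the 58 (5.17%), namely ETV6, POU2F1 and TLX3. The match of ETV6 (log2 ratios 0.17 and 0.00) lies after the start site and is not shown. The stretches of POU2F1 (-0.66 and -1.09) and TLX3 (-0.58 and -0.90) are shown on the strand of the gene, with the match in capitals. The first line is chr1:165953074-165953133 (minus strand) and the other chr11:33203690-33203749 (minus strand).
POU2F1: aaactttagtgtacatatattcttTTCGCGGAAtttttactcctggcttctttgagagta
TLX3: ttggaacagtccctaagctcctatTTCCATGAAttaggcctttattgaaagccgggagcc
The match starts 38 bases before the start of POU2F1 and 137 before that of TLX3. The GATA pattern AGATAA was found in 12.7% of all genes and in 6 of the 58 (10.3%), and the ETS pattern CCGGAAGT in 4.31% and in 3 of the 58 (5.17%). The 6 were FOXA2, HNF4A, LHX8, POU2F1, TCF21 and TCF7L2. HNF4A, LHX8 and POU2F1 were lower on both arrays, while FOXA2, TCF21 (not tested) and TCF7L2 had opposite signs. HNF4A, shown here as the lowest of them, has 2 windows. Its match lies 52 bases before one of these starts, in chr2:163506781-163506840 (plus strand).
HNF4A: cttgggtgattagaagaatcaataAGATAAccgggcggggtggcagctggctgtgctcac
These are matches of letters and not sites of binding.

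Markers of other cells that embryos collected from oviducts could carry were measured beside these factors. Of 6 names of cumulus and oviduct cells 2 had a spot, and both were higher on both arrays, oviductal glycoprotein 1 with 0.74 and 1.11 and pentaxin related gene with 0.67 and 1.68. Their summed signal was 892.2 and 1174 after LIF-siRNA and 544.9 and 461.7 after scrambled siRNA. Of 4 fibroblast names 3 had a spot and 2 were tested, procollagen III alpha 1 with 0.98 and 0.80 and procollagen I alpha 2 with 1.92 and 1.25. The latter was well above background in 2 of 4 channels, and its mean of 1.59 became 0.45 after normexp and loess. Procollagen I alpha 1 was not well above background in any channel. The summed fibroblast signal was 3858 and 4012 after LIF-siRNA and 1931 and 2298 after scrambled siRNA. Of the blood list 1 of 3 names had a spot pair (beta globin), with 1 clone higher and 1 lower on both arrays. The neural list had 3 of 4 names, with 1 higher and 1 lower on both arrays. The oocyte list had 1 of 6 names, bone morphogenetic protein 15 with 0.35 and 0.77. The part of these cells in the higher ratios of HOXA10, HOXA11, HOXD10, FOXD1, DLX5 and LHX2 was not tested.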

How the data were processed

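Each of 2 arrays was hybridized with cDNA of LIF-siRNA-treated (Cy5) and scrambled-siRNA-treated (Cy3) morulae. The authors deposited Agilent Feature Extraction output (version 7.5.1 in the file headers), with background subtraction, surrogates for low signals and rank-consistent lowess. The deposited log10 ratio of Cy5 over Cy3 was converted to log2. The deposited intensity columns hold spot brightness, local background and processed signal. The deposited log2 table of the series tracked the brightness of both channels (r = 0.998 on array 1) and not the ratio (r = 0.012), so it gave no alternative value. The deposited files hold no gene symbols. Symbols were given from the gene names, and 82 spots matched a RefSeq symbol.

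Spots of controls were not used, nor were 23 gene spots that the software marked as outliers. The log2 ratio was tested against 0 with limma 3.58.1 in R 4.3.3 (two-sided, Benjamini-Hochberg over 8079 probes, threshold 0.05), and checked on simulated data. Each ratio holds both groups, so no slide block was possible. Folds with a floor used, on each array, the higher of the lowest signal marked well above background and the dim spot's own, and are not strict bounds. Other steps used Python 3.11.15, pandas 2.3.3 and numpy 2.4.6. Alternatives were normexp (offset 50) with loess, median centring, outliers kept, other filters, an intensity trend, the methods' t-test, other criteria and leaving out each array. Named genes were those with a mean ratio above 2 or below 0.5 and the same sign on both arrays, lineage factors, those next to a threshold, clones of 1 gene that differ, and the family members cited as examples. Members and lists were chosen with earlier results of these data known. Some members that this rule names are not reported here.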

Additional observations from a re-analysis of the deposited data

How the results depend on the processing

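By the criteria as applied here to the mean of both arrays, the 2 factors past the upper threshold became 1 with median centring, 9 with no signal threshold or with well above background in its place, and 0 when both arrays had to pass. The 3 past the lower threshold became 7, 7 and 1 under the last 3 of these. With 1 array left out the counts ran from 0 to 5 up and from 1 to 7 down, the lower from array 1 alone (without replicate 2) and the higher from array 2 alone (without replicate 1). The count of 0 factors with an adjusted p under 0.05 was 3 with normexp and loess (all probes 1.83%), 4 among spots well above background in both channels (3.09%), 5 among bright spots past the threshold of signal (18.7%), 23 after median centring (16.4%) and 16 when the intensity trend was fitted (14.0%). It was 0 with no filter, with outliers kept and by the methods' t-test. ELF3 was among the called factors in each of the 5 settings that called any. The 9 factors past 2-fold on both arrays in 1 direction became 4 with normexp and loess, 5 with both channels well above background and 1 past the signal threshold, and 16 to 26 with 1 array alone. The median of the network list was -0.11 when the genes the study had picked were left out, an alternative chosen after seeing the data. The median log2 ratio of the 76 spots kept its sign throughout, but family medians did not. Past the threshold of signal HOXC6 alone remained of the HOX genes (-0.58), TFAP2C alone of AP-2 (0.59) and EOMES alone of T-box (0.14). Of the POU genes POU2F1 and POU5F1 remained (median -0.49). The median was -0.14 for other homeobox genes well above background in both channels, and 0.45 for HOX genes after median centring. With 1 array alone it ran from 0.03 to 0.63 for HOX, with the sign kept. The sign differed between the arrays for LIM homeobox (-0.05 to 1.12), other homeobox (-0.08 to 0.36) and AP-2 (-0.50 to 0.15). It also differed for GATA (-0.23 to 0.17), POU (-0.28 to 0.05) and other transcription factors (-0.01 to 0.24). The runt median of -0.32 was 0.17 on array 1 alone and 0.34 on array 2 alone. Of the values of named factors and families under these settings, without those that leave out an array, 126 moved by no more than the SD between the arrays and 26 by more. Apart from fewer spots or 1 array, the cause was not tested. No paired analysis was possible because each ratio already compares both groups within 1 array. The number of arrays and the dim control channels of HOXD10, DLX5, FOXD1 and HOXA11 limit the precision.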
